A study of Mus musculus with 8 samples.

Results

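The Slc38 genes encode sodium-coupled neutral amino acid transporters, known as SNATs, and 10 of the 17983 genes in the deposited tables were taken as members by their symbols: Slc38a1 to Slc38a7, Slc38a9, Slc38a10 and Slc38a11. All 10 passed the filter on low counts and were among the 14895 genes tested. An 11th family gene in the tables, Slc38a8, was not a member and did not pass that filter, with 0 to 10 counts per library. The members were selected on their symbols, but the family was chosen by its diet differences in these same libraries, so the diet values of its genes are given as a description and the calls on them are not independent evidence.

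The study sequenced messenger RNA from whole brains of male db/db mice, which carry a leptin receptor mutation and become obese and diabetic. A ketogenic diet, which holds mostly fat and little carbohydrate, was fed to the mice of 4 libraries, called ketogenic, and a normal diet to those of the 4 control libraries. All 8 libraries share the db/db genotype, so no mouse without the mutation enters the comparison. The diets began at an age of 9 weeks and the brains were taken at 6 months. The labels do not say how the libraries relate to single animals, so the p-values measure the spread between these libraries.

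Glutamine is the main amino acid that astrocytes pass to neurons, which turn it into glutamate and GABA. Transporters of the system N kind, such as SNAT3 and SNAT5, carry glutamine in either direction and are best known in astrocytes, while those of the system A kind, SNAT1, SNAT2 and SNAT4, take up small neutral amino acids into the cell. SNAT7 and SNAT9 sit in the lysosome membrane, where SNAT9 reports lysosomal arginine to mTORC1, the kinase complex that couples nutrients to growth. SNAT2 is known in cultured cells for rising when amino acids are withdrawn.

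Total counts were between 34450860 and 40233361 per library. Ketogenic replicate 3 lay apart from the others on the first principal component of log2 CPM, the count scaled by library size, at 34.4, with the other ketogenic replicates at 2.90 to 11.2 and the control replicates at -22.7 to -5.94. Summed markers of astrocytes, neurons, oligodendrocytes and their precursors, microglia, endothelium, mural cells, choroid plexus and meningeal fibroblasts were present in every library and overlapped between the diets, and none of the markers was at 0 throughout. Summed red blood cell markers did not overlap, at 15.3 to 52.4 CPM under the control diet and 69.4 to 114 CPM under the ketogenic diet, and 4 of the 5 passed as higher. Among 8 astrocyte markers 4 were lower, Aqp4, Gfap, Gja1 and Aldh1l1, and 1 was higher, Fgfr3. Of the remaining markers, Tmem119 of microglia was higher, and Emcn of endothelium and Rgs5 of mural cells were lower. These calls, and those of the red blood cell markers, used an edgeR adjusted p under 0.05, which 6.52% of all tested genes reached. In whole brain, fewer cells of a type and less RNA per cell cannot be told apart.

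Of the 10 Slc38 genes, 1 was higher in ketogenic brains, Slc38a2, 0 were lower and 9 did not pass. The threshold was an adjusted p of 0.05 in the quasi-likelihood test of edgeR, adjusted by the Benjamini-Hochberg method over all tested genes, and 6.52% of tested genes passed it, 3.3% as higher and 3.22% as lower. At an unadjusted p under 0.05, which 24.6% of tested genes reached, there were 1 higher and 2 lower, and the DESeq2 Wald test, which called 11.9% of tested genes, called 1 higher and 0 lower. The median log2 change of the 10 genes was -0.07, and over all tested genes it was -0.00287. Slc38a2 was also the only member whose control and ketogenic libraries did not overlap, a separation seen in 13.7% of tested genes.

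**Figure D1:**
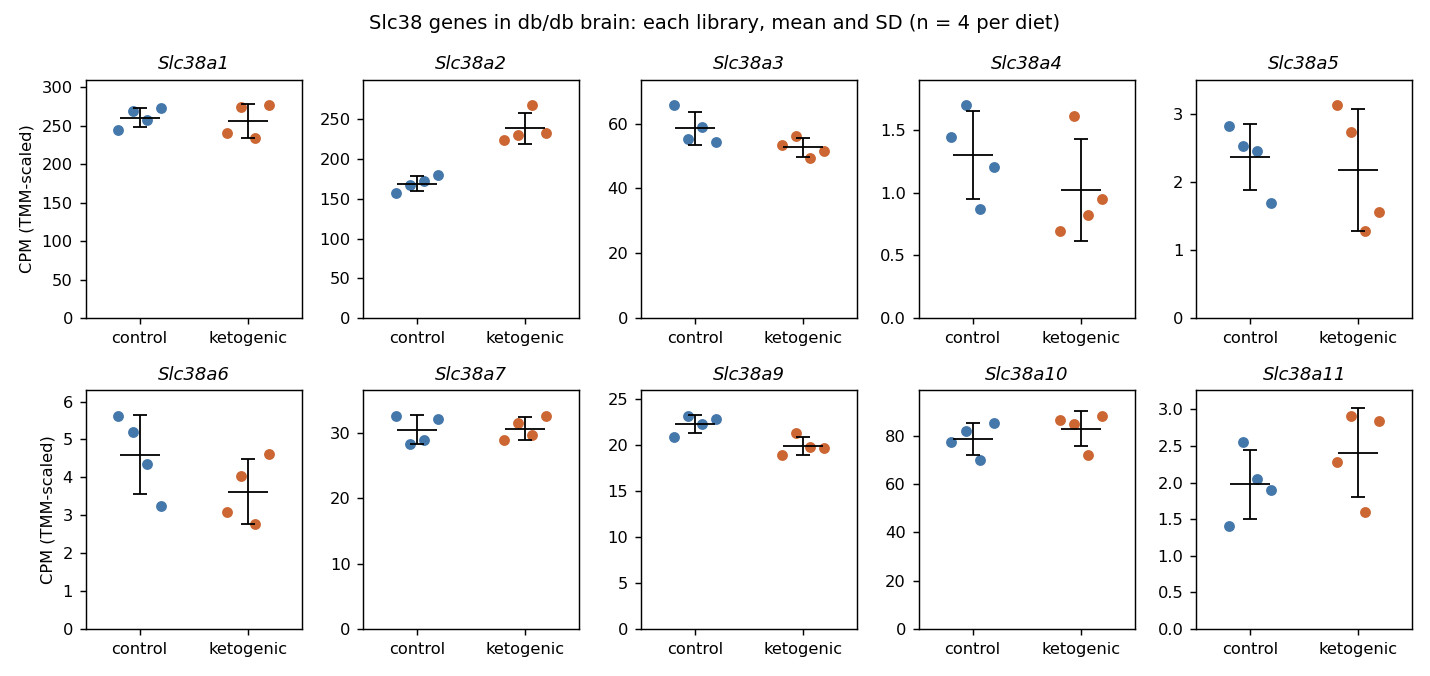
CPM after scaling by trimmed mean of M values (TMM), on an axis from 0, for each of the 10 Slc38 genes in each library, with control in blue and ketogenic in orange; the bar is the mean and the whiskers are ± SD (n = 4 per diet). The 4 ketogenic libraries of Slc38a2 sit between 224 and 268 CPM, above the control libraries at 157 to 179 CPM, while the diets overlap in the other panels.

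Slc38a2 encodes SNAT2, the most widely expressed system A transporter. It was at 157, 168, 173 and 179 CPM in control replicates 1 to 4 and at 224, 230, 268 and 233 CPM in ketogenic replicates 1 to 4. Every ketogenic library lay above every control library, and ketogenic replicate 3 was the highest of all. The group means were 169 ± 9.60 and 239 ± 19.7 CPM (SD, n = 4 each). The fitted log2 change was 0.50 ± 0.06 (SE), or 1.41-fold, with an edgeR adjusted p of 0.00142. Ordered by p, Slc38a2 was 7th of the 14895 tested genes. By size, 56 of the 491 genes called higher had a larger change, and the median change among those 491 was 0.31.

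The Slc38a2 call did not depend on the library that stood apart. Without ketogenic replicate 3 the log2 change was 0.44 ± 0.06 (edgeR adjusted p = 0.000886). With replicate 4 of that group also left out it was 0.42 ± 0.07 (adjusted p = 0.00883). Leaving out any single library gave a change between 0.44 and 0.53 and an adjusted p of at most 0.0101. The call was lost with limma on unfiltered log2(FPKM + 0.1), at the same change of 0.50 and an adjusted p of 0.0854, a setting in which 0 of 17983 genes passed. The 7 choroid plexus and ependyma markers had a median log2 change of 0.44 with 0 past the threshold, and their summed level was 597 to 1146 CPM in control and 1076 to 1378 CPM in ketogenic libraries. The part of the red blood cell, astrocyte and choroid plexus marker differences in the Slc38a2 value was not tested.

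Slc38a2 lies on the minus strand at chr15:96687392-96699730 (GRCm38, GENCODE M21), between 2 other system A genes. Slc38a1 is 44.5 kb to one side at chr15:96571418-96642913 and Slc38a4 is 295.1 kb to the other at chr15:96994820-97055956. No annotated gene overlaps any of the 3. The other tested genes within 1000 kb of Slc38a2 number 8, and 0 of them passed in edgeR's test, which called 6.52% of all tested genes. With so few genes, a count of 0 is near that share. Their log2 changes ran from -0.35 in Slc38a4 to 0.21 in Amigo2, a gene named after its values were seen. Whether the change of Slc38a2 differs from that of its neighbours was not tested.

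The promoter of Slc38a2 is shown because it belongs to the member that changed. It runs 5′ to 3′ over the 250 bases before the RefSeq start (GRCm38.p6, chr15:96699729-96699978, minus strand), with the letters TATAA in capitals. The other lines show 50 bases around a match in a member that did not pass, in Slc38a5 (chrX:8271331-8271380, plus strand) and Slc38a7 (chr8:95853492-95853541, minus strand) with CACGTG in capitals, and in Slc38a6 (chr12:73286708-73286757, plus strand) with TGACGTCA in capitals.
Slc38a2: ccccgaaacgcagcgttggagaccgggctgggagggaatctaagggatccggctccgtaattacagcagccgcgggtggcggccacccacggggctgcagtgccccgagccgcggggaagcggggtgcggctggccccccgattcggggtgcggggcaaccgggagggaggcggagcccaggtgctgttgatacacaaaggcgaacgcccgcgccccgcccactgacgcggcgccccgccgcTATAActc
Slc38a5: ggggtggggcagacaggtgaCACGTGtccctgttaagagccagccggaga
Slc38a6: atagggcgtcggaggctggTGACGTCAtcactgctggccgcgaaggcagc
Slc38a7: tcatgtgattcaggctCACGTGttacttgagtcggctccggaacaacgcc

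RefSeq promoters, 250 bases before to 50 after a start, were given for 8 of the 10 members and not for Slc38a1 and Slc38a3. They were searched on both strands for 4 motifs chosen after the values were seen, with no overlap between the matches. TGATGNAA, the core of the amino acid response element bound by ATF4 with C/EBP partners, was in 0 of the 8 members' windows and in 2.3% of the 15111 promoters of tested genes. Introns and other sequence outside these windows were not searched, so this count cannot show that a gene lacks the element. TGACGTCA, the cyclic AMP response element, was in Slc38a6 and in 2.81% of promoters. CACGTG, a form of the E-box CANNTG, was in Slc38a5 and Slc38a7 and in 9.26% of promoters. Other forms of the E-box were not searched. TATAA was in Slc38a2 and Slc38a4 and in 14.2% of promoters. In Slc38a2 the TATAA letters begin 8 bases before the annotated start. The 250 bases before that start were 72% G or C, against a median of 59.2% in promoters of tested genes.

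Slc38a1 encodes SNAT1, the system A transporter best known in neurons. It was at 244, 269, 257 and 272 CPM in control replicates 1 to 4 and at 240, 274, 234 and 276 CPM in ketogenic replicates 1 to 4. Low and high libraries occurred under both diets and the groups overlapped over most of their range. The log2 change was -0.02 ± 0.06 (SE), and its sign turned without control replicate 4 or without ketogenic replicate 1 or 3. Slc38a4, whose transporter SNAT4 is best known in liver and placenta, was near the lower end of detection, at 31 to 61 counts in control and 27 to 66 counts in ketogenic libraries. Its log2 change was -0.35 ± 0.36 (edgeR adjusted p = 0.604).

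The system N genes did not pass. Slc38a3, at chr9:107650634-107669530 on the minus strand, encodes SNAT3, the glutamine transporter of astrocytes. It was at 65.6, 55.2, 58.9 and 54.3 CPM in control replicates 1 to 4 and at 53.4, 56.3, 49.5 and 51.7 CPM in ketogenic replicates 1 to 4. Only ketogenic replicate 2 reached into the control range. The log2 change was -0.15 ± 0.07 (SE), with an unadjusted p of 0.0473 and an edgeR adjusted p of 0.198. The 8 astrocyte markers had log2 changes from -0.54 in Aqp4 to 0.33 in Fgfr3, with a median of -0.23, and their summed level overlapped between the diets, at 2329 to 2723 CPM in control and 2362 to 2519 CPM in ketogenic libraries. Their part in the Slc38a3 value was not tested.

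Slc38a5, at chrX:8271133-8280179 on the plus strand, encodes SNAT5, the other system N transporter. It was at 2.82, 2.53, 2.46 and 1.69 CPM in control replicates 1 to 4 and at 3.13, 2.74, 1.28 and 1.56 CPM in ketogenic replicates 1 to 4. The ketogenic libraries held both the highest and the lowest values. The log2 change was -0.12 ± 0.29, and it was 0.31 ± 0.28 without ketogenic replicates 3 and 4, so no direction could be given. Without ketogenic replicate 3 or 4 alone it was 0.07 and 0.01.

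Neither lysosomal member passed. Slc38a9, at chr13:112660751-112738749 on the plus strand, encodes the arginine sensor that acts on mTORC1. It was at 20.9, 23.2, 22.3 and 22.9 CPM in control replicates 1 to 4 and at 18.9, 21.3, 19.8 and 19.7 CPM in ketogenic replicates 1 to 4. Control replicate 1 and ketogenic replicate 2 were the libraries by which the groups overlapped. The log2 change was -0.16 ± 0.08 (SE), with an unadjusted p of 0.0496 and an edgeR adjusted p of 0.202. GENCODE places 2 other genes within Slc38a9, 1 of them antisense, and since the use of strand in counting is not given in the sources used here, reads from them cannot be told apart.

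Slc38a7, at chr8:95835920-95853539 on the minus strand, encodes SNAT7, which exports glutamine from lysosomes. It was at 28.4 to 32.6 CPM in control libraries and 28.9 to 32.6 CPM in ketogenic libraries, with a log2 change of 0.01 ± 0.07. That was the member with the smallest change of the 10.

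The remaining members are less well characterised transporters. Slc38a10, at chr11:120103960-120151346 on the minus strand and overlapped by 1 gene on the other strand, was at 70.2 to 85.5 CPM under the control diet and 72.3 to 88.3 CPM under the ketogenic diet, a log2 change of 0.07 ± 0.07. Slc38a6, at chr12:73286779-73354049 on the plus strand, was at 3.25 to 5.62 CPM under the control diet and 2.77 to 4.62 CPM under the ketogenic diet, a log2 change of -0.34 ± 0.21. Slc38a11, at chr2:65316430-65364034 on the minus strand, was at 1.41 to 2.56 CPM under the control diet and 1.60 to 2.91 CPM under the ketogenic diet, a log2 change of 0.28 ± 0.26. These 3 genes overlapped between the diets and did not pass.

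**Figure D2:**
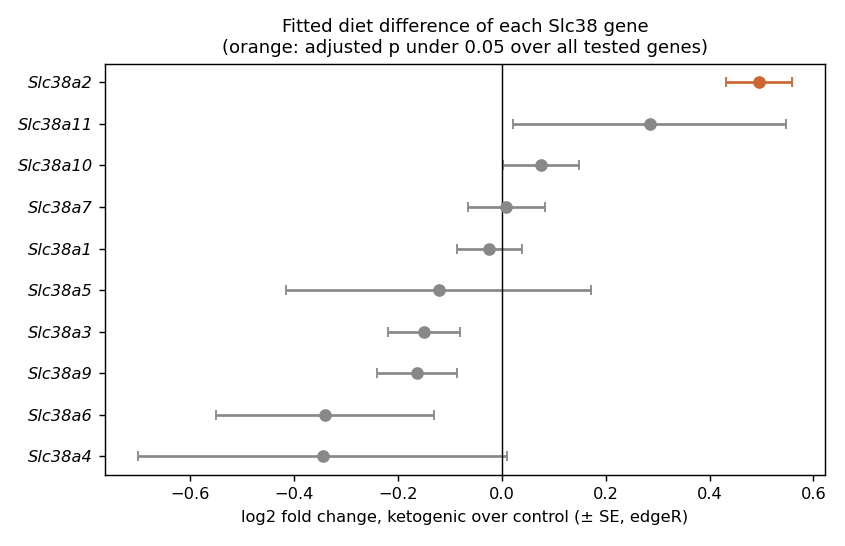
Fitted log2 fold change of ketogenic over control for each Slc38 gene, ordered by value, with whiskers of ± SE from edgeR (4 libraries per diet). Slc38a2, in orange, is at 0.50 and is the member past the adjusted threshold; the other 9, in grey, run from -0.35 to 0.28, with the widest whiskers on the members of low level.

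Among the ketogenic libraries, replicate 3 had the highest Slc38a2 and the lowest value of 6 other members, Slc38a1, Slc38a3, Slc38a5, Slc38a6, Slc38a10 and Slc38a11. Ketogenic replicate 1 had the lowest value of 4 members, Slc38a2 among them, and the highest of 1, Slc38a5. Ketogenic replicates 2 and 4 had the highest value of 4 members each and the lowest of 0.

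Per length, the members fell into abundant and scarce genes. The deposited FPKM values, counts scaled by gene length and library size, were used for levels between genes. Mean FPKM over the 8 libraries was 43.7 ± 8.44 for Slc38a2, 30.1 ± 2.40 for Slc38a1, 18.3 ± 1.60 for Slc38a3, 14.8 ± 1.43 for Slc38a10 and 8.60 ± 0.58 for Slc38a7 (SD, n = 8). It was 2.22 ± 0.18 for Slc38a9, 1.22 ± 0.36 for Slc38a5, 0.457 ± 0.11 for Slc38a6, 0.379 ± 0.10 for Slc38a11 and 0.265 ± 0.09 for Slc38a4. Slc38a2 stood at the 90.4th percentile of mean FPKM among tested genes and Slc38a4 at the 7.48th.

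Each member was compared with the next in that order within libraries, on log2(FPKM + 0.01), by an exact two-sided sign-flip permutation test over the 8 libraries. The order, and so the pairs, came from the same 8 libraries with both diets together. Of the 9 neighbouring pairs 8 differed at an adjusted p under 0.05. Over all libraries the FPKM ranges of 3 pairs overlapped: Slc38a3 with Slc38a10, Slc38a6 with Slc38a11, and Slc38a11 with Slc38a4. The smallest possible p is 0.00781, reached by the first 7 pairs, which held their order in 8 of 8 libraries (adjusted p = 0.01). Slc38a6 and Slc38a11 did not differ beyond their spread, with Slc38a6 higher in 6 of 8 libraries, a mean log2 difference of 0.27 ± 0.48 (SD) and an exact permutation p of 0.133. Slc38a11 was above Slc38a4 in 7 of 8 libraries (exact permutation p = 0.0312, adjusted p = 0.0352). By library means, the order was the same in control and ketogenic brains except that Slc38a6 and Slc38a11 changed places. These levels rest on the authors' gene lengths, 4664 bases for Slc38a2 and 8589 bases for Slc38a1. In CPM, without length, Slc38a1 had the higher mean of the pair under both diets, at 260 against 169 CPM in control and 256.1 against 238.6 CPM in ketogenic libraries, although Slc38a2 was the higher in ketogenic replicate 3.

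**Figure D3:**
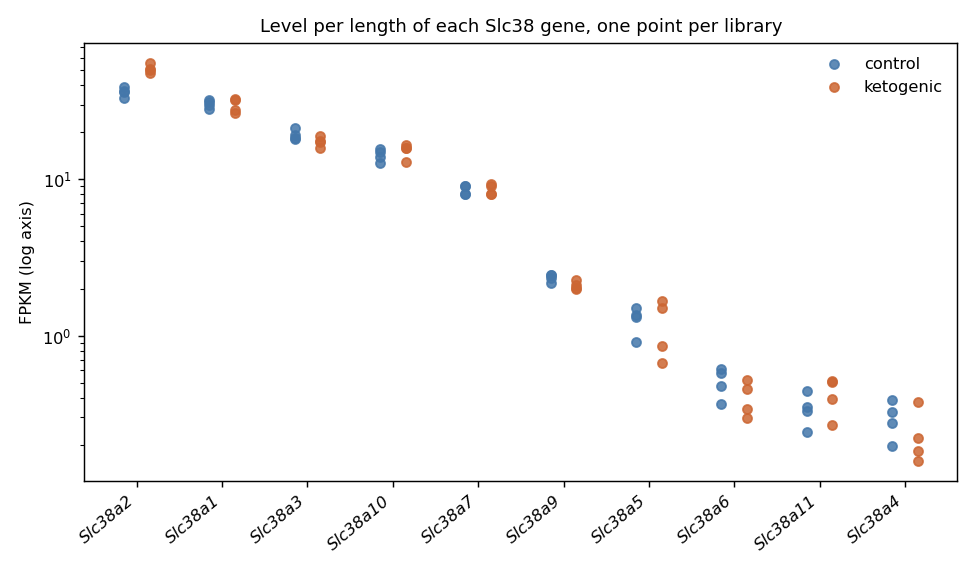
FPKM on a log axis for each Slc38 gene, ordered by its mean, with 1 point per library in blue (control) or orange (ketogenic). The 5 upper genes lie between 7.99 and 55.8 FPKM and the 5 lower ones between 0.158 and 2.44 FPKM, with a gap between Slc38a7 and Slc38a9.

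Slc38a2 made up a larger share of the family in every ketogenic library than in any control library. The FPKM ratio of Slc38a2 to Slc38a1 within a library, which needs no scaling between libraries, was 1.18, 1.15, 1.24 and 1.21 in control replicates 1 to 4 and 1.72, 1.55, 2.11 and 1.55 in ketogenic replicates 1 to 4. The 2 groups did not overlap, and ketogenic replicate 3 was the highest. Slc38a2 held 31.9 ± 1.40% of the summed Slc38 FPKM in control and 40.5 ± 3.40% in ketogenic libraries (SD, n = 4 each). Without Slc38a2 the summed FPKM of the other 9 genes was 77.2 ± 1.97 in control and 75.5 ± 6.68 in ketogenic libraries, a difference within the spread. These ratios rest on the same diet contrast and were not tested.

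**Figure D4:**
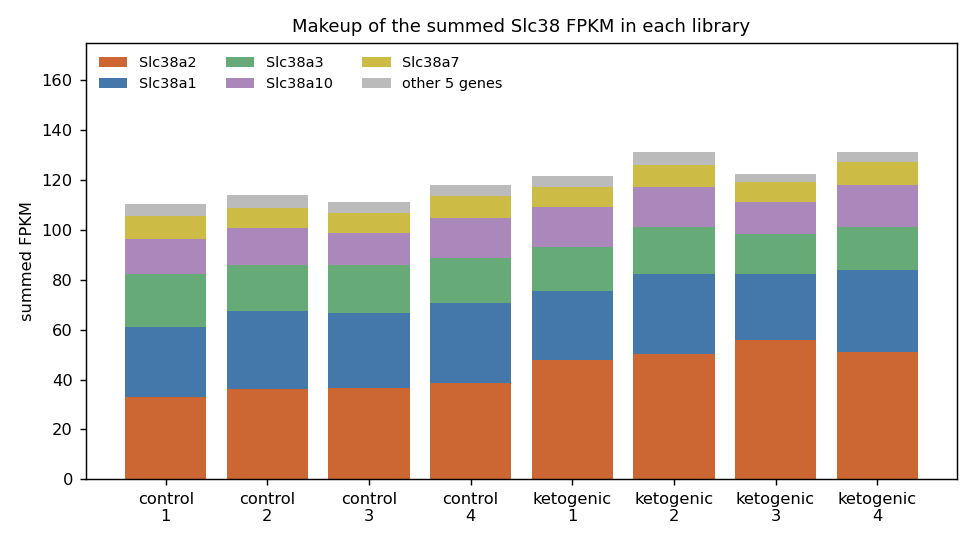
Summed FPKM of the 10 Slc38 genes in each library, stacked by gene, on an axis from 0. The sum is 110 to 118 in control and 122 to 131 in ketogenic libraries, and the orange Slc38a2 segment is 33.2 to 38.8 in control and 47.8 to 55.8 in ketogenic libraries.

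Genes of 4 related lists gave the setting, described by counts only. Of 20 tested genes for other transporters of neutral amino acids, 0 were higher and 0 lower in edgeR's test, against 6.52% of all tested genes. At an unadjusted p under 0.05 there were 4 higher and 2 lower, where 24.6% of all tested genes reached it, and the DESeq2 Wald test called 2 higher and 1 lower, where it called 11.9% of all. The list's median log2 change was 0.06. Slc7a5 and Slc3a2 together form a large neutral amino acid transporter. Their log2 changes were 0.20 ± 0.07 and 0.17 ± 0.05 (edgeR adjusted p = 0.102 and 0.0709). Slc6a6 was nearest to the threshold, at 0.21 ± 0.06 (edgeR adjusted p = 0.0517). The 2 lower at an unadjusted p under 0.05 were Slc6a9, at -0.27 ± 0.09, and Slc6a20a, at -0.28 ± 0.13 (edgeR adjusted p = 0.0893 and 0.195). These genes are named after their values were seen.

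Of 32 tested genes of the amino acid response through ATF4, 1 was higher, 0 were lower and 31 did not pass, with a median log2 change of 0.04. The member that rose was Gpt2, the mitochondrial alanine aminotransferase, at 60.6 ± 3.67 CPM under the control diet and 81.8 ± 3.74 CPM under the ketogenic diet (SD, n = 4 each). Its log2 change was 0.43 ± 0.06 (SE), with an edgeR adjusted p of 0.00251, and it passed whichever single library was left out. With the DESeq2 Wald test 3 members of the list were higher. Over all tested genes edgeR called 6.52% and the DESeq2 Wald test 11.9%.

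Of 35 tested genes of lysosomal amino acid sensing upstream of mTORC1, 3 were higher, 0 were lower and 32 did not pass. The list's median log2 change was 0.06. The list also held genes of mTORC1 itself and of its control by growth factors. Lamtor4, a subunit of the lysosomal scaffold Ragulator, went from 13.6 ± 0.81 to 18.0 ± 0.88 CPM. Nprl2, of the GATOR1 complex that restrains mTORC1, was 1.26-fold higher, and Sesn1, a sestrin that acts on the GATOR complexes, 1.22-fold higher. The 3 calls were lost without control replicate 1 or ketogenic replicate 2 (edgeR adjusted p of up to 0.0735), and those of Lamtor4 and Sesn1 also without control replicate 2. Without control replicate 4 there were 7 members higher, and after removal of the GC and length trend there was 1, Sesn1. The share of all tested genes called moved as well, from 6.52% to 12.7% without control replicate 4. After removal of the trend it was 2.09%. Calls over all tested genes also fell in the 3 fits that lost these list calls. The share was 0.971% with control replicate 1 left out, 1.36% with control replicate 2 and 1.31% with ketogenic replicate 2. The losses were therefore not particular to these 3 genes.

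Of 21 tested genes of the glutamine, glutamate and GABA cycle, 1 was higher, 0 were lower and 20 did not pass. That is 4.76% called, against 6.52% of all tested genes, and the list's median log2 change was 0.02. Slc32a1, the vesicular GABA transporter, went from 121 ± 4.38 to 141 ± 11.4 CPM (edgeR adjusted p = 0.0397). That call was lost when control replicate 1, 2 or 3 or ketogenic replicate 1, 2 or 4 was left out (adjusted p of up to 0.123). Removal of the GC and length trend also ended it (0.193). Calls over all tested genes fell as well, from 6.52% to 2.09% after removal of the trend. With these libraries left out singly, the share ranged from 0.971% (control replicate 1) to 3.91% (ketogenic replicate 1).

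The genes whose pattern over the 8 libraries was most like that of Slc38a2, by Pearson's r of log2 CPM among 13526 genes with a mean of at least 1 CPM, were Zswim7, Tbc1d22a, Fkbp8, Dhx33 and Vsir, with r of 0.985 to 0.991. These values describe the same 8 libraries and the diet difference enters them. Of the 5, Zswim7 did not pass (edgeR adjusted p = 0.0903), and the others had log2 changes from 0.19 in Fkbp8 to 0.30 in Tbc1d22a.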

How the data were processed

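Messenger RNA of 8 brain libraries was measured, 4 per diet. The authors deposited raw counts per gene symbol and FPKM values, which are the counts over a single length for each gene and over the library total. The submitters' processing notes name GRCm38 and mm10. The aligner, counter, strand setting and annotation release: not given in the sources used here. Per the labels' protocols, 1.3 ug of total RNA entered a SMARTer kit. Counts were tested with edgeR 4.0.16 (quasi-likelihood F test on intercept and diet, after TMM scaling and filterByExpr) and adjusted by Benjamini-Hochberg over 14895 genes. The standard error (SE) is the log2 fold change divided by the square root of F. The members, the lists and the tests were chosen with earlier results of these data known. Named genes were all members, list members past the threshold, and the 5 genes most like the member with the smallest p. Other genes named (Slc38a8, Amigo2, Slc7a5, Slc3a2, Slc6a6, Slc6a9, Slc6a20a and single cell type markers) fall outside that rule and were chosen after their values were seen. Alternatives used DESeq2 1.42.0 and limma 3.58.1, other scalings and filters, a block on replicate number and left-out libraries. Removal of a loess trend (span 0.3) on GC content and log2 length was added after seeing the data, with GC known for 98.1% of tested genes. Tests were checked on simulated data.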

Additional observations from a re-analysis of the deposited data

How the results depend on the processing

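Slc38a2 passed under 20 of 21 alternatives, with log2 changes of 0.42 to 0.56 and adjusted p of 1.79e-10 to 0.0854. The other 9 members passed under none of those run, and 6 of them kept their direction. The signs of the other 3 turned: with each library left out, Slc38a1 ran from -0.063 to 0.020, Slc38a5 from -0.35 to 0.067 and Slc38a7 from -0.025 to 0.042. Without ketogenic replicates 3 and 4 together Slc38a5 was at 0.31 and Slc38a7 at -0.010, and after removal of the GC and length trend Slc38a7 was at -0.024. The cause was not tested.

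Counts past the threshold moved as follows. With limma on unfiltered log2(FPKM + 0.1), 0 members of the Slc38 family, the glutamine cycle, lysosomal sensing and ATF4 lists were higher. With limma on log2(FPKM + 1), the glutamine cycle list had 0 higher with or without the count filter, and the lysosomal list 1 without it. With DESeq2 size factors, library size alone, no count filter or a mean CPM of at least 1, the other transporters had 1 higher. With the DESeq2 Wald test they had 2 higher and 1 lower, the glutamine cycle 1 lower, the lysosomal list 5 higher and the ATF4 list 3 higher. Without ketogenic replicates 3 and 4 the glutamine cycle and lysosomal lists had 0 higher, and after removal of the GC and length trend 0 and 1. The share of all tested genes called was 0.592% and 2.09% in these settings. With each library left out the ranges were 0 to 1 lower for the other transporters, 0 to 1 higher and 0 to 1 lower for the glutamine cycle, 0 to 7 higher for lysosomal sensing and 1 to 2 higher for ATF4. Of the 9 neighbouring pairs of levels, 7 to 8 differed.

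All genes past the threshold numbered 971, against extremes over left-out libraries of 146 (control replicate 1) and 1900 (control replicate 4), 1767 with the DESeq2 Wald test, 311 once the GC and length trend was taken out and 0 to 211 with limma on log2 FPKM. With the replicate number as a block there were 1528, with 2 higher and 1 lower among the other transporters, 1 lower in the glutamine cycle and 2 higher in the ATF4 list, and Slc38a2 had an adjusted p of 0.000263. Same-numbered libraries deviated together only weakly (correlations of 0.02 to 0.08). Control replicates 3 and 4 correlated best with the ketogenic replicate of their own number, but control replicates 1 and 2 did not. The numbers were not taken as a pairing. Members with few counts, Slc38a4, Slc38a5, Slc38a6 and Slc38a11, had errors of 0.21 to 0.36 on the log2 scale.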
